A study of Solanum lycopersicum with 28 samples.

Results

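The 2 peak lists described here are those of acetylation (H3K27ac) and of trimethylation (H3K27me3) of the same residue, lysine 27 of histone H3, in leaves of tomato (Solanum lycopersicum). They were chosen by the antibody named in the labels, and every deposited peak on chromosomes 1 to 12 was kept, which gave 106737 peaks of H3K27ac and 50745 of H3K27me3, 157482 of the 3381748 chromosomal peaks in all 28 lists. A further 335 peaks of H3K27ac and 146 of H3K27me3 lay on organelle or unplaced sequences. The series is a chromatin immunoprecipitation sequencing (ChIP-seq) atlas, in which an antibody recovers the DNA wrapped around histones that carry a given modification and the recovered DNA is sequenced. It holds 27 antibody targets, of which 13 are acetylations, 13 are methylations and 1 is RNA polymerase II (Pol2), and an Input, which is chromatin sequenced with no immunoprecipitation; the labels give H4K12ac and H4K20ac the same antibody catalogue number, and both were counted as labelled. All plants were wild type of the cultivar M82, untreated and 4 weeks old, kept at 24 °C with 16 h of light, and whole leaf tissue was used, so that all of its cell types were mixed. Per the labels each target had 1 library, prepared with 10 ng of DNA and sequenced as single reads of 75 bp, and no difference below could therefore be set against variation between plants.

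A lysine side chain carries either an acetyl group or methyl groups, so that acetylation and trimethylation exclude each other on any single H3 tail. H3K27ac is placed by histone acetyltransferases and is found at promoters and enhancers of active genes. H3K27me3 is placed by Polycomb repressive complex 2 and marks facultative heterochromatin, which holds genes that are silent in a given cell but can be expressed in another, among them many developmental regulators of plants. A nucleosome has a pair of H3 tails, and a leaf has many cells and cell types. An overlap of peaks in bulk chromatin may thus come from opposite tails, from different alleles or from different cells, and these cannot be told apart in the lists.

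The lists differed in form and in strength. H3K27ac peaks were called in the narrow mode of the peak caller, had a median width of 404 bp (quartiles 228 to 779 bp) and covered 61.0 Mb, 7.60% of the 802 Mb spanned by peaks. H3K27me3 peaks were called in the broad mode, which joins neighbouring enriched stretches, had a median width of 986 bp (quartiles 495 to 2486 bp) and covered 82.2 Mb (10.2%). The fold enrichment, the ratio that the authors' caller gave between reads at a peak and the background around it, had a median of 2.29 in H3K27ac (quartiles 1.89 to 3.17) and of 1.47 in H3K27me3 (quartiles 1.40 to 1.62). The latter was the lowest median of the 28 lists, and the former ranked 12. A q-value (a p-value adjusted by the caller) under 0.05 was reached by 95.3% of the H3K27ac peaks and by 26.6% of the H3K27me3 peaks, against 33.4% over all lists. Folds and q-values of broad peaks are averages over the peak, whereas those of narrow peaks are taken at the summit, so the values of the 2 lists are not the same measure.

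Close to 50% of the peaks of each mark met the other mark. A peak was counted as shared when it had at least 1 bp in common with a peak of the other list, and as exclusive otherwise. Of the H3K27ac peaks, 49880 (46.7%, 95% Wilson interval 46.4 to 47.0%) were shared, and of the H3K27me3 peaks 26489 (52.2%, 51.8 to 52.6%), which left 56857 and 24256 exclusive peaks. The intervals cover counting error only, and peaks are neither independent of each other nor replicates. As background, 23.8% of the peaks of the 25 other targets touched H3K27me3 and 33.9% touched H3K27ac. Among the 12 other acetylations 49.4% of the peaks touched H3K27me3, slightly above the share of H3K27ac itself. Of the Input peaks, 18% touched H3K27me3 and 25.2% touched H3K27ac. The shares depended on the peaks used. With a q-value under 0.05 and a fold above 1.5 they were 22.6% of the H3K27ac and 86.1% of the H3K27me3 peaks, and among peaks more than 1 kb from any Input peak 42.5% and 20.2%. The last setting kept only 11947 H3K27ac and 6136 H3K27me3 peaks. Long H3K27me3 peaks touched Input peaks more often than short ones, in 97.5% above 4 kb and 21.7% up to 250 bp. The part of width in the lower share was not tested.

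Shared peaks were mostly short acetylated stretches within longer trimethylated ones. H3K27me3 covered 33429 H3K27ac peaks (31.3%) from end to end and another group in part, so that 39.5% were covered over at least 50% of their length. In the opposite direction 17.0% of the H3K27me3 peaks were covered over at least 50% and 1972 (3.89%) entirely. The 50012 stretches that held both marks added up to 21.1 Mb, which was 34.7% of the bases of H3K27ac and 25.7% of those of H3K27me3. Their median length was 306 bp (quartiles 190 to 532 bp). Of the shared H3K27me3 peaks, 53.3% touched 1 H3K27ac peak, 23.6% touched 2 and 23.1% touched 3 or more, with a maximum of 11. H3K27ac covered a median of 36.2% of a shared H3K27me3 peak (quartiles 19.9 to 57.5%). The reverse case was rare, as 131 H3K27ac peaks touched more than 1 H3K27me3 peak.

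The 3 longest shared stretches give single cases, with positions (first base 1) on the M82 genome, version 1. The longest, chr12:62841092-62844856, held both marks over 3765 bp, with no H3K9ac, no Pol2 and 81.6% of its bases in H3K27me2, the dimethylated form of the same lysine. The second, chr12:38215547-38219052 (3506 bp), and the third, chr5:18097632-18101088 (3457 bp), lay in the central part of their chromosomes. All 3 were without H3K9ac and Pol2 and without H3K9me2, a mark of constitutive heterochromatin, while H3K4me3, a mark of active promoters, covered 51.6%, 87.2% and 80.4% of them. Between 10 and 11 of the 12 other acetylations touched each stretch. Gene names were not assigned to any peak, because no annotation of this genome build was used here.

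Among H3K27me3 peaks, those shared with H3K27ac were longer and of higher fold. Shared H3K27me3 peaks had a median width of 2119 bp (quartiles 891 to 3400 bp) and a median fold of 1.54, and 44.6% of them reached a q-value under 0.05. Exclusive H3K27me3 peaks had a median width of 594 bp (quartiles 349 to 1000 bp) and a median fold of 1.43, and 7.02% reached it. Most of the well-supported trimethylated regions thus carried acetylation somewhere along their length, as 11806 shared and 1702 exclusive peaks had a q-value under 0.05. A longer peak has more room to meet another. The shared portion was 20.5% in H3K27me3 peaks of up to 250 bp, 34.5% in those of 500 to 1000 bp, 83.7% in those of 2 to 4 kb and 95.9% above 4 kb. The part of the bases covered was 16.6% in the shortest class, 28.5% in that of 2 to 4 kb and 27.9% above 4 kb, and the part of width in the result was not tested.

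Fold also separated H3K27me3 peaks of like width. Within the class of 2 to 4 kb, the lowest, middle and highest fold groups of equal size were shared in 76.8%, 84.3% and 90.0% of the peaks, and H3K27ac covered 21.3%, 26.5% and 37.3% of their bases. The H3K27me3 peaks of all widths were also ordered by fold into 10 groups of equal size. The share touching H3K27ac was 43.9% in group 1, of lowest fold, 30.6% in group 2 and 87.0% in group 10. Contact with Input peaks moved alongside, from 48.1% in group 1 to 87.4% in group 10, and its part in the result was not tested.

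For H3K27ac the relation was different in shape. Shared H3K27ac peaks had a median fold of 2.35 (quartiles 1.95 to 3.16) and a median width of 390 bp, and exclusive ones 2.24 (1.83 to 3.19) and 421 bp, so that the ratio of the medians was 1.05 and the quartile ranges overlapped almost fully. Across 10 groups of H3K27ac fold the share touching H3K27me3 was 33.1% in group 1, 53.1% in group 7 and 40.7% in group 10, a curve with its top in the upper middle. The strongest acetylation peaks were thus less often in trimethylated chromatin than those of intermediate strength. Their contact with Input was higher in each group than in the one before, from 30.6% to 88.3%, and its part in the result was not tested. Among H3K27ac peaks of 1 to 2 kb the 3 fold groups were shared in 38.9%, 46.1% and 42.5%, and among those of 250 to 500 bp in 38.6%, 53.1% and 59.3%.

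**Figure D1:**
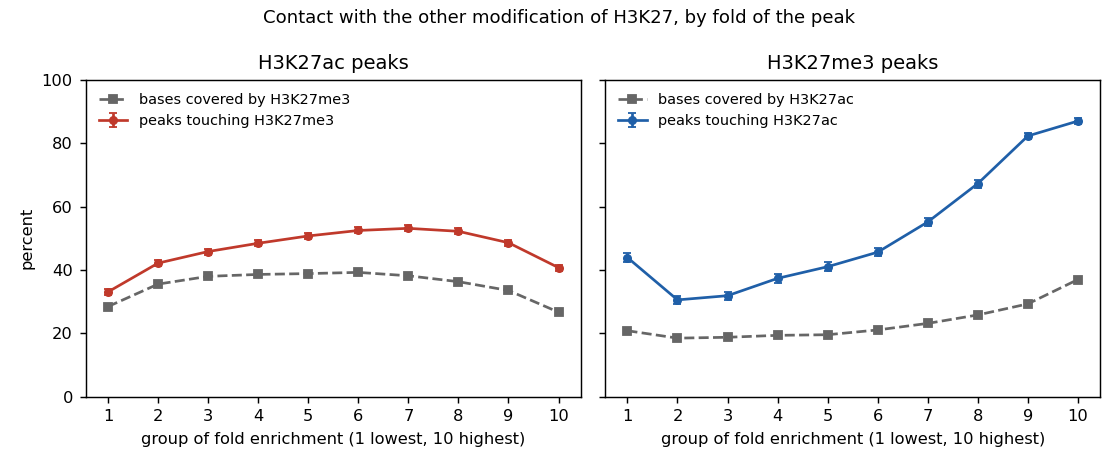
Share of H3K27ac peaks touching H3K27me3 (left) and of H3K27me3 peaks touching H3K27ac (right), in percent on the y axis, for 10 groups of equal size by fold enrichment, from lowest to highest, on the x axis, with 95% Wilson intervals as bars and the percent of bases covered as grey squares. The acetylation curve is highest at 53.1% in group 7, whereas the trimethylation curve reaches 87.0% in group 10.

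The peaks of highest fold illustrate both conditions. Of the H3K27ac peaks that touched H3K27me3, the one of highest fold was chr10:45026393-45027139 (747 bp, fold 15.0, also the highest of the list), which lay entirely in H3K27me3, H3K9ac, H3K18ac, H3K4me3 and H3K27me2. The next, chr11:54822186-54822907 (722 bp, fold 14.6), was covered by H3K27me3 over 46.4% and by H3K36me3, a mark of transcribed gene bodies, over 88.8%. Of those that did not touch it, chr5:59622615-59623480 was listed with a fold of 14.9 and lay 15029 bp from the nearest H3K27me3 peak. Its −log10 p-value of 8.41 does not match that fold, a mismatch seen in 2 of the 500 H3K27ac peaks with a fold above 10, the rest having 84.2 or more. The next, chr6:16016129-16017239 (1111 bp, fold 14.6), lay 8213 bp away and was covered entirely by H3K36me3 and H3K4me3. All 4 were touched by each of the 12 other acetylations.

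Among H3K27me3 peaks of at least 1 kb, the single cases of highest fold were more varied in their partners. The highest fold with H3K27ac was at chr6:48652671-48654819 (2149 bp, fold 5.60), where H3K27ac covered 29.7%, H3K18ac 41.9% and neither H3K4me3, H3K9ac nor Pol2 was present. The next, chr1:26171419-26172660 (1242 bp, fold 5.02), was covered by H3K27ac and H3K18ac entirely and by H3K4me3 over 87.9%. Without H3K27ac, the highest was chr2:45064350-45065859 (1510 bp, fold 4.37), 974 bp from the nearest H3K27ac peak. It held H3K9ac over 82.7%, Pol2 over 66.9% and H3K27me2 entirely, so that a lack of H3K27ac was no lack of acetylation. The next, chr6:49052737-49054056 (1320 bp, fold 3.93), lay 22629 bp from H3K27ac and held H3K18ac over 52.3%.

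The longest peaks of each list were well below their list's top folds. The longest H3K27ac peak, chr10:59370654-59375037 (4384 bp, fold 2.62), was covered by H3K27me3 over 37.2%. The longest without H3K27me3, chr2:16609468-16613603 (4136 bp, fold 2.80), ended 21 bp from an H3K27me3 peak. Among H3K27me3 peaks the longest was chr11:54113552-54126371 (12820 bp, fold 1.39), with 27.5% of its bases in H3K27ac. The longest H3K27me3 peak free of H3K27ac, chr3:1232257-1239131 (6875 bp, fold 1.48), had its nearest H3K27ac peak 1150 bp away and was covered by H3K9ac over 47.0%.

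Both marks were concentrated towards the chromosome ends. Occupancy was measured in windows (bins) of 150 bp, each assigned to a mark if a peak of that mark covered the middle of the bin. H3K27ac occupied 7.6% of all bins and H3K27me3 10.2%. In the terminal zone, the outer 10% at each end, the values were 17.4% and 21.9%, and in the central zone, the middle 50%, they were 3.44% and 4.86%. On a log2 scale the terminal over central ratio was 2.34 for H3K27ac and 2.17 for H3K27me3, close to each other and opposite to H3K9me2 (-2.51). Chromosome 2 was the exception, with 0.37 and -0.09. Its first 10% held H3K27ac in 1.80% and H3K27me3 in 1.79% of the bins, and its last 10% held them in 22.3% and 24.3%.

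Both marks were most abundant at the chromosome ends, whereas their tendency to share bins was highest in the centres. Co-occupancy was given by a log2 odds ratio over bins, which is 0 where the marks fall independently, positive where they share bins and negative where they avoid each other. Over all bins it was 2.56, with a range from 1.64 on chromosome 2 to 3.19 on chromosome 12. It was 4.56 in the central zone, 2.66 in the intermediate zone and 0.46 in the terminal zone. H3K27me3 held 45.4% of the H3K27ac bins of the central zone against 3.41% of the bins there without H3K27ac, and 26.6% against 20.9% in the terminal zone. The terminal value lay between 0.05 (chromosome 3) and 1.26 (chromosome 2), and the central value between 2.12 (chromosome 2) and 5.87 (chromosome 12). The terminal value was below the central value on all 12 chromosomes. It was sensitive to the setting, with 0.03 when equal numbers of peaks were used and 1.26 when the terminal zone was the outer 20%. The contrast between zones was not particular to H3K27ac. Each of the other acetylations also had a lower value with H3K27me3 in the terminal zone (0.27 to 1.47) than in the central zone (2.92 to 5.37).

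The same measure was taken between each mark and other targets. H3K27ac had log2 odds ratios from 3.94 (H3K9ac) to 7.36 (H3K56ac) with the 12 other acetylations, 6.04 with H3K4me3 and -8.03 with H3K9me2. H3K27me3 had 1.31 with H3K27me2, 2.12 with H3K4me3, 1.57 with H3K4me2, -2.02 with H3K36me3 and -6.40 with H3K9me2. Its value with Pol2 was 1.59 and with the Input 1.03, while H3K27ac had 3.02 and 2.40.

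A finer division showed where along the arm the value changed sign. In 20 tiles of 5% of the chromosome length, the log2 odds ratio was 0.34 in the first, 5.60 between 25% and 30%, and -0.21 in the last. In the last tile H3K27ac occupied 21.0% and H3K27me3 23.5% of the bins, and 4.51% held both. The last 10% of the chromosome gave a value below 0 on 8 of the 12 chromosomes, from -0.34 on chromosome 3 to 0.72 on chromosome 12. The first 10% gave a value above 0 on all 12, from 0.10 on chromosome 11 to 5.96 on chromosome 2, whose start had few peaks of either mark. H3K9me2 occupied 2.28% of the bins in the last tile and 62.2% between 25% and 30%, so that the open background against which the marks were compared differed between tiles.

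**Figure D2:**
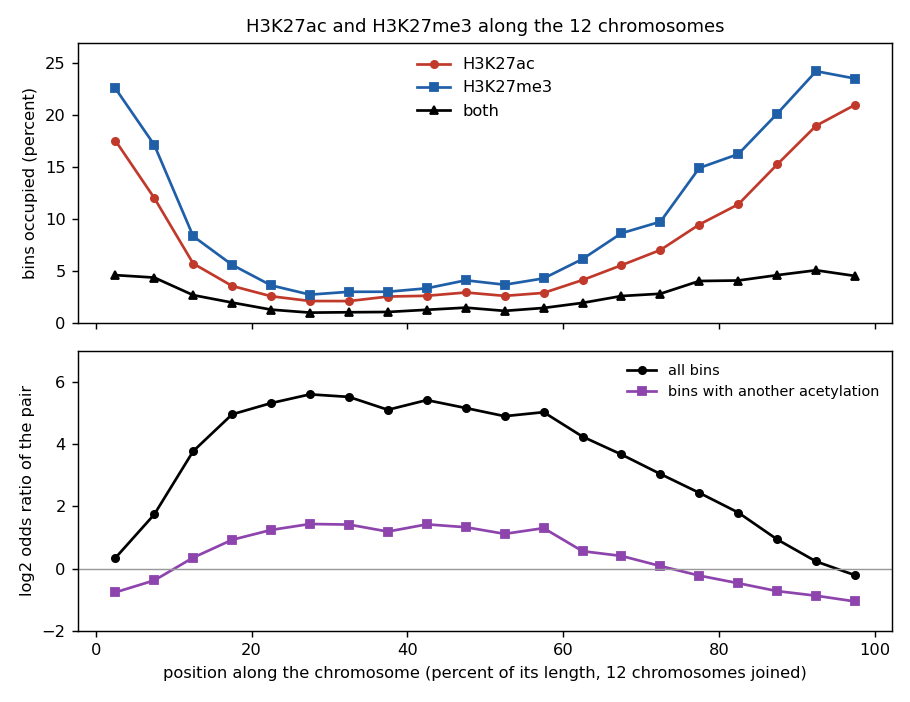
Position along the chromosome in percent of its length, with the 12 chromosomes joined into 20 tiles, on the x axis, against the percent of bins occupied by H3K27ac, by H3K27me3 and by both (top) and the log2 odds ratio of the pair (bottom), over all bins and over bins that hold another acetylation. Occupancy is highest at both ends, while the odds ratio is 5.60 between 25% and 30% and -0.21 in the last tile.

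By peaks, the terminal and central zones differed in opposite directions for H3K27ac and H3K27me3. H3K27ac peaks were shared in 40.4% of cases in the terminal, 51.2% in the intermediate and 53.6% in the central zone. For H3K27me3 the values were 53.9%, 54.1% and 47.1%. Median folds varied little between zones. For H3K27ac they were 2.25 in the terminal and 2.37 in the central zone, and for H3K27me3 1.47 and 1.46.

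The sign of the odds ratio depended on whether chromatin with no acetylation at all was counted. When only the bins that held at least 1 of the 12 other acetylations were used, the log2 odds ratio of H3K27ac and H3K27me3 was -0.22, because H3K27me3 held 35.7% of the bins with H3K27ac and 39.2% of those without. It was -0.80 in the terminal and 0.83 in the central zone. The value over these bins was below 0 on 10 of the 12 chromosomes and ranged from -0.65 (chromosome 2) to 0.11 (chromosome 12). With peaks of a fold above 1.5 alone, it was -0.047 over all chromosomes. Divided by the number of other acetylations in the bin, the pair gave 2.55 with none, -0.29 with 1 to 3, -0.46 with 4 to 6, 0.01 with 7 to 9 and -0.62 with 10 to 12. In the last group H3K27me3 held 28.9% of the bins with H3K27ac and 38.4% of the few without. A low value in this group was not particular to H3K27ac. Taken likewise, the other acetylations ran from -1.65 (H3K9ac) to 0.87 (H3K18ac, the only one above 0). H3K4ac, H3K9ac, H3K14ac, H3K36ac, H3K56ac, H4K12ac, H4K16ac and H4K20ac were lower than H3K27ac. H3K27ac itself was present in 0.559% of the bins with no other acetylation and in 93.3% of those with 10 to 12.

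Acetylation of lysine 27 was set beside the other 12 acetylations, none of which competes with trimethylation for the same side chain. Over all bins the log2 odds ratio with H3K27me3 ran from 1.89 for H3K4ac to 3.52 for H3K18ac, and H3K27ac (2.56) ranked 8 of 13. Among the acetylations with lower values were H4K12ac (2.51), H3K36ac (2.38) and H3K56ac (2.26). Among those with higher values were H3K14ac (3.23) and H4K5ac (2.96). In the terminal zone H3K27ac ranked 10 and in bins with another acetylation also 10, level with H3K9ac (-0.22), where H3K56ac (-0.39), H3K4ac (-0.36) and H3K36ac (-0.30) were lower. The lists differ in the bases they cover. When each was limited to its peaks of lowest p-value up to 37.4 Mb, the coverage of the shortest list, H3K27ac ranked 11 over all bins (2.01), 9 in the central zone (4.12) and 13 in the terminal zone. The terminal value was -0.11, the only one of the 13 below 0, next to 0.14 for both H4K5ac and H3K36ac. These ranks come from 1 library per mark, and whether they exceed the spread between libraries was not tested.

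**Figure D3:**
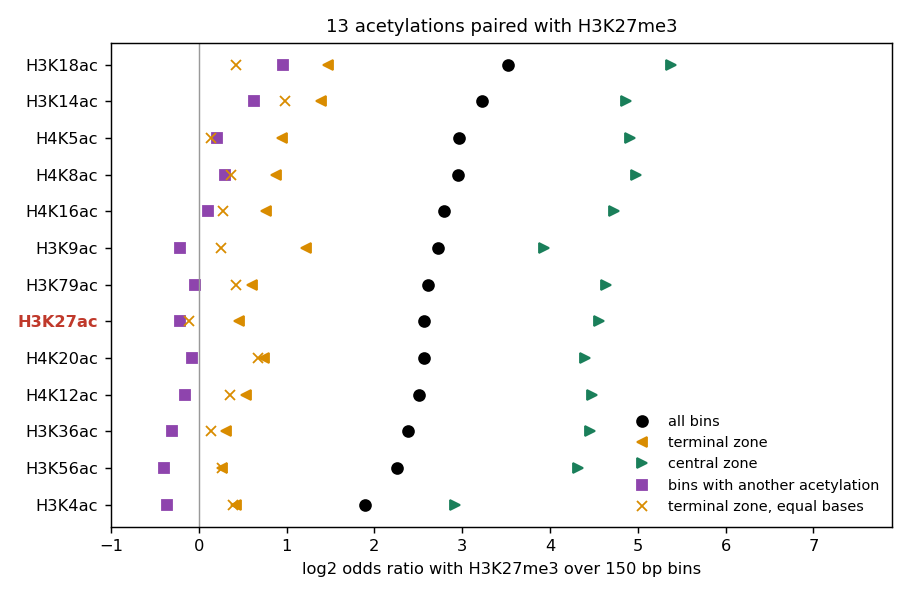
Log2 odds ratio with H3K27me3 over 150 bp bins (x axis) for each of the 13 acetylations (y axis), in all bins, in the terminal zone, in the central zone, in bins that hold another acetylation, and in the terminal zone after each list was limited to 37.4 Mb. H3K27ac ranks 8 over all bins at 2.56, and in the last comparison it is the only acetylation left of 0 (-0.11).

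Distances from exclusive peaks to the other mark were mostly of a few kb or less. Exclusive H3K27ac peaks had their nearest H3K27me3 peak at a median of 1458 bp (quartiles 595 to 3230 bp), with 38.3% within 1 kb and 84.6% within 5 kb. Exclusive H3K27me3 peaks had their nearest H3K27ac peak at a median of 1409.5 bp, with 40.2% (Wilson 39.6 to 40.9%) within 1 kb and 75.2% within 5 kb. The share within 1 kb was 60.5% with a q-value under 0.05 and a fold above 1.5, and 26.2% among peaks away from the Input. The tails differed more than the medians, as 1.05% of the exclusive H3K27ac peaks and 5.33% of the exclusive H3K27me3 peaks (1294) lay more than 50 kb from the other mark. The largest distance was 1.28 Mb for H3K27ac and 0.920 Mb for H3K27me3. By zone, the median distance of exclusive H3K27me3 peaks was 900 bp in the terminal, 1582.5 bp in the intermediate and 5199 bp in the central zone, where H3K27ac was scarcer. That of exclusive H3K27ac peaks was 1439 bp, 1347 bp and 1803.5 bp. Touching or within 1 kb of an exclusive H3K27me3 peak, H3K27me2 was found in 90.1%, H3K27me1 in 65.7%, Pol2 in 50.4% and H3K9ac in 46.5% of cases, and Input peaks in 79.8%. Touching or within 1 kb of an exclusive H3K27ac peak, H3K18ac was found in 88.1%, H3K27me2 in 86.7%, Pol2 in 72.0% and Input peaks in 87.9%. Exclusive peaks by definition touch no peak of the other mark, and the lists differ in their number of peaks. These values are therefore not comparable with the shares within 1 kb of the other mark (38.3% and 40.2%).

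Inside H3K27me3 peaks of 2 kb or more, H3K27ac summits and H3K27ac occupancy were laid out differently. The 32294 H3K27ac summits in 15910 such peaks fell evenly over their length, with 9.48% to 10.5% in each of 10 equal sections. Occupancy of H3K27ac was lower towards the edges of these peaks and beyond them, from 29.5% at 800 bp inside and 24.8% at 200 bp inside to 15.1% at 100 bp and 13.4% at 400 bp outside. It was 17.8% at 1300 bp and 15.6% at 3100 bp outside, so that a low shoulder of H3K27ac stood about 1 to 2 kb beyond the border. H3K18ac had a steeper edge, from 47.7% at 800 bp inside to 13.2% at 400 bp outside, and H3K9ac a shallower one, from 34.0% to 25.4%. H3K36me3 and H3K9me2 took the opposite course. H3K36me3 was at 2.26% at 800 bp inside and 19.3% at 4900 bp outside, and H3K9me2 at 0.066% and 18.1%. Input moved with H3K27ac to a lesser degree, from 10.9% at 800 bp inside to 8.16% at 400 bp outside, and its part in the result was not tested. The broad mode joins close stretches, so no other H3K27me3 peak was found at 400 bp outside. At 1300 bp outside, where the shoulder stood, 11.8% of the bins lay in another H3K27me3 peak.

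**Figure D4:**
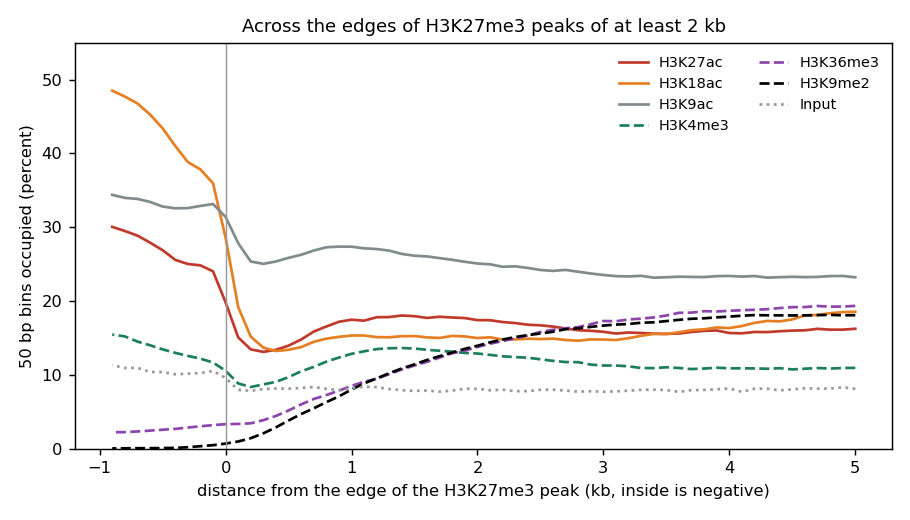
Percent of 50 bp bins occupied by H3K27ac and other marks (y axis) against the distance from the edge of H3K27me3 peaks of at least 2 kb (x axis, kb, inside negative). H3K27ac goes from 29.5% at 800 bp inside to 13.4% at 400 bp outside, with 17.8% at 1300 bp outside, while H3K36me3 and H3K9me2 are at 2.26% and 0.066% at 800 bp inside and at 19.3% and 18.1% at 4900 bp outside.

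Pol2, H3K4me1 and H3K36me3 covered more of the bases of H3K27ac peaks that had no H3K27me3. Pol2 covered 46.3% of the bases of exclusive and 28.2% of those of shared H3K27ac peaks. H3K4me1, found in the bodies of plant genes, covered 32.3% and 13.6%, and H3K36me3 covered 31.5% and 14.7%. The constitutive heterochromatin marks H3K27me1 (28.2% and 16.9%) and H3K14me1 (12.6% and 8.31%) also covered more of the exclusive peaks. H3K56me2, another such mark, covered less of them (4.26% and 5.35%). H3K4me3 differed less (48.9% and 47.4%). Of the other acetylations, H3K9ac (53.3% and 45.5%), H3K4ac (41.4% and 40.4%) and H3K56ac (53.3% and 52.7%) covered less of the shared peaks. All the rest covered more of the shared peaks. The largest differences among them were those of H3K18ac (66.0% and 78.6%), H4K8ac (57.9% and 67.3%) and H4K5ac (61.6% and 68.6%). H3K27me2 also covered more of the shared peaks (39.1% and 69.9%). Input covered 19.5% and 22.3%. The differences of Pol2, H3K4me1 and H3K36me3 had the same direction in the terminal and in the central zone, and the intermediate zone was not analysed for partners. In the terminal zone Pol2 covered 49.7% and 37.8%, and in the central zone 36.5% and 16.9%.

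Marks of activity differed widely in exclusive H3K27me3 peaks. H3K4me3 covered 1.54% of their bases against 19.1% in shared H3K27me3 peaks, H3K56ac 0.534% against 19.5%, and H3K18ac 14.7% against 48.2%. H3K9ac covered 24.1% against 35.1% and H3K14ac 15.2% against 34.5%. Over the whole genome H3K9ac covered 9.37%, H3K14ac 6.92%, H3K18ac 8.99% and Pol2 9.39%. Exclusive H3K27me3 peaks were above this genome-wide level for these lists, but below it for H3K4me3 (4.95%) and H3K56ac (4.66%). The level differed by zone. In the terminal zone Pol2 covered 26.1% of the bases of exclusive H3K27me3 peaks and 27.7% of all bins. H3K18ac was also lower in these peaks there (17.0% and 19.3%), whereas H3K9ac was higher (33.9% and 27.4%). In the central zone Pol2, H3K18ac and H3K9ac were each above their level in all bins. Other targets were as frequent or more so in exclusive than in shared H3K27me3 peaks. H3K36me3 covered 15.9% against 5.16%, H3K4me1 16.4% against 7.96% and H3K27me1, a mark of constitutive heterochromatin, 35.5% against 13.3%. The whole genome had 38.0% of its bases in H3K27me1, 23.7% in H3K36me3 and 10.8% in H3K4me1. By zone, H3K27me1 in exclusive H3K27me3 peaks was above its level in all bins. It had 22.9% against 20.6% in the terminal and 57.0% against 45.2% in the central zone. H3K36me3 was below its level in both zones, and H3K4me1 was below it in the terminal and above it in the central zone. Pol2 was close in exclusive and shared H3K27me3 peaks (19.0% and 21.5%). H3K9me2 was rare in every class, with 3.95% of the bases of exclusive and 0.117% of those of shared H3K27me3 peaks, and 0.525% and 0.083% in exclusive and shared H3K27ac peaks. Of the exclusive H3K27me3 peaks 52.1% touched none of the 12 other acetylations, against 0.615% of the shared ones. The medians were 0 and 11 acetylations, and all 12 touched 0.26% and 38.6%. For H3K27ac the peaks touched by none made up 10.7% of the exclusive and 2.94% of the shared class, with medians of 6 and 8. Shorter peaks have fewer chances to touch a list, and exclusive H3K27me3 peaks were shorter, as given above.

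**Figure D5:**
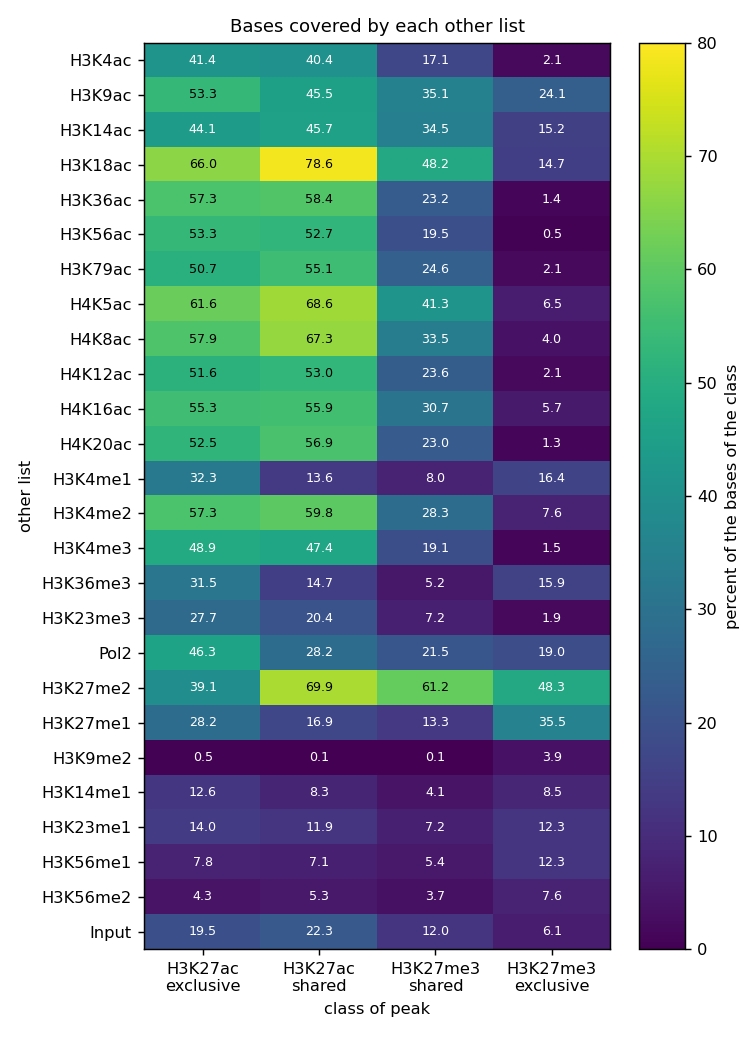
Percent of the bases of exclusive and shared H3K27ac peaks and of shared and exclusive H3K27me3 peaks (x axis) covered by each of the 25 other targets and the Input (y axis), as colour and number. H3K27me2 stands at 69.9% and H3K18ac at 78.6% in shared H3K27ac peaks, whereas Pol2 is highest in exclusive H3K27ac peaks at 46.3%.

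Joined across gaps of up to 3 kb, the H3K27me3 peaks formed 32313 domains with a median length of 2518 bp. Of these, 11976 (37.1%) held no H3K27ac, and they were short, with a median of 619 bp against 3752 bp for domains with H3K27ac. The share without H3K27ac was 78.2% up to 1 kb, 23.4% from 1 to 5 kb, 4.08% from 5 to 10 kb and 0.552% (9 of 1629) from 10 to 20 kb. Of the 170 domains above 20 kb none was without H3K27ac, which allows a share of up to 1.76%. The bases covered by H3K27ac did not keep growing with length, as they were 14.1%, 27.5%, 22.3%, 20.3% and 19.6% in the 5 classes.

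The longest domain, chr3:55975629-56033144, was 57516 bp long and joined 16 H3K27me3 peaks, with H3K27me3 on 67.4% and H3K27ac on 18.4% of its length. The next, chr4:57590045-57643579 (53535 bp, 13 peaks), held H3K27ac on 20.7% and H3K9ac on 63.0%. All 12 other acetylations touched both. The longest domain with no H3K27ac was chr2:38498184-38513775 (15592 bp, 7 peaks), which also held no other acetylation, no H3K4me3 and no Pol2 and lay 13051 bp from the nearest H3K27ac peak. The second, chr2:38445847-38458985 (13139 bp, 3 peaks), lay shortly before it and was touched by 2 other acetylations. H3K27me2 covered 50.6% and 37.2% of these 2 domains, and H3K9me2 0% and 1.71%.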

How the data were processed

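Per the methods of the study, reads were trimmed with Trimmomatic 0.38 and aligned with Bowtie2 2.3.5 to version 1 of the M82 genome, duplicates and poorly placed alignments were removed, and peaks were called with MACS2 2.2.7.1 at a p-value of 0.05, in the narrow mode for H3K27ac and in the broad mode for H3K27me3. The broad list reached p-values of about 0.1. The methods of the study also give independent biological replicates for each ChIP-seq condition, whereas the labels give 1 library per target. Whether replicates were pooled, and whether the Input served as control of the caller, was not given in any source used here. The deposited columns used were the fold enrichment (a ratio to local background), the −log10 p-value and the −log10 q-value that the authors' caller gave each peak. The deposited score repeats the −log10 p-value or q-value on another scale and was not analysed. The other deposited column, the offset of the summit in narrow lists, gave the summit position.

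Lists hold no read totals, so depth is unknown. From fold and p-value the pileup at the summit could be solved for H3K27ac and was a whole number, to within 0.02, for 99.9963% of 106737 peaks. Its median was 56.0 reads (quartiles 38 to 84) over a median background of 22.0 reads. This cannot be done for averages over broad peaks.

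Overlap was counted from 1 bp. Odds ratios were taken over 150 bp bins with 0.5 added to each cell, chromosome length was the largest peak end in any list, and Wilson intervals were at 95%. Peaks named in the text were, for each mark, the 2 of highest fold and the longest with and without the other mark (for fold, H3K27me3 peaks of at least 1 kb), the 3 longest shared stretches, and the 2 longest domains with and without H3K27ac. With 1 library per target no test between conditions was possible and none was run. The marks, lists and measures were chosen with earlier results of these data known. Code ran in Python 3.11.15 with numpy 2.4.6, pandas 2.3.3 and scipy 1.17.1, and the overlap and bin functions were tested on simulated intervals. Alternatives were a fold above 1.5, a p-value or q-value under 0.05, equal numbers of peaks, an overlap of 50%, distance from Input peaks, bins of 1000 bp and a terminal zone of 20%.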

Additional observations from a re-analysis of the deposited data

Results flagged for a closer look

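Peaks outside the 12 chromosomes entered no comparison, and 3 of their values were above the Input. H3K27me3 peaks covered 58.5% of the chloroplast sequence (Input 36.01%) and 54.2% of the mitochondrial sequence (Input 32.3%), although these genomes carry no histones. They covered 1.12% of the unplaced sequences (Input 1.04%). The H3K27ac peaks covered 30.7%, 5.89% and 0.973%, each below the Input. H3K27me3 peaks are broad and those of the Input narrow, and the part of this format in the difference was not tested.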

How the results depend on the processing

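Of the 8 main results, the odds ratios, the zone ratios and the ratio of median folds kept their direction under these alternatives. The shares have no direction to change. They depended on which peaks were used, and each threshold removed more of the H3K27me3 than of the H3K27ac list. The shared portion was lower in H3K27ac than in H3K27me3 in the main setting. It was higher with equal numbers of peaks, with an overlap of 50% and away from Input peaks. A fold above 1.5 left 104392 H3K27ac and 21509 H3K27me3 peaks, of which 30.9% and 71.2% were shared. With a q-value under 0.05 in addition, 100941 and 11447 were left, and 22.6% and 86.1% were shared. A p-value under 0.05 gave 42.8% and 62.1%, equal numbers of 50745 peaks 44.9% and 36.2%, an overlap of at least 50% gave 39.5% and 17.0%, and peaks more than 1 kb from Input peaks 42.5% and 20.2%. The distance from Input left 11947 H3K27ac and 6136 H3K27me3 peaks. In the same order of settings (fold, q-value, p-value, equal numbers, distance from Input), the log2 odds ratio over all bins was 2.67, 2.78, 2.62, 2.18 and 3.21, and the ratio of the median folds of shared and exclusive H3K27ac peaks was 1.03, 1.01, 1.02, 1.01 and 1.04. The share of exclusive H3K27me3 peaks within 1 kb of H3K27ac was 51.2%, 60.5%, 46.5%, 30.4% and 26.2%. The log2 odds ratio in bins with another acetylation was -0.047 (fold), -0.074 (q-value), -0.22 (p-value), -0.57 (equal numbers) and -0.34 (distance from Input). The terminal over central log2 ratio of H3K27me3 was 2.04 (fold), 1.91 (q-value), 2.22 (p-value), 3.16 (distance from Input) and 1.83 (terminal zone of 20%), and that of H3K27ac was 3.26 (distance from Input) and 1.94 (terminal zone of 20%). The terminal log2 odds ratio was between 0.03 (equal numbers) and 1.26 (terminal zone of 20%). With bins of 1000 bp the log2 odds ratio was 2.56 over all bins and -0.22 in bins with another acetylation. The cause of these shifts was not tested beyond what each setting removes by construction. The equal coverage of the 13 acetylations, the zones apart and the width and fold classes were chosen after seeing the data. No paired analysis was possible because each target had 1 library.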
